A study of Mus musculus with 46 samples.

Results

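CC and CXC chemokines are small secreted proteins that draw leukocytes into tissue, and 10 of them were followed in mouse liver after carbon tetrachloride (CCl4): Ccl2, Ccl3, Ccl4, Ccl6, Ccl7, Ccl9, Cxcl1, Cxcl2, Cxcl10 and Cxcl14. They are a chosen part of the chemokines among 18193 genes on the array, and 25 others are treated further below. Each was read from the probe set that names only that gene and has the highest mean over all arrays. A probe set is a group of short probes for 1 transcript. Of the 10, 8 lay above the median of all array values (5.56 on the log2 scale) on at least 5 of 46 arrays and were among the 13239 genes that passed this filter and were tested. Ccl3 and Cxcl14 did not pass it, and their changes come from a fit without the filter.

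Livers came from male C57BL/6N mice aged 8 to 10 weeks. CCl4 was given once into the abdominal cavity at 1.6 g/kg in olive oil, and livers were taken 2 h, 8 h or 1 d later, or on day 2, 4, 6 or 8 (written 2 d to 8 d; 5 arrays at each time), or on day 16 (6 arrays). The 5 control arrays came from mice that received nothing. A comparison with control therefore also holds the effect of injection and oil, and the same control arrays serve all 8 of these comparisons. The labels give C57BL/6N, male and liver for all groups, number the arrays without saying that each is a separate animal, and do not give the time of day. The p-values therefore measure the spread between arrays, which may be technical. The treatment label of the control arrays also reads CCl4, and the group was taken from the title. As a check of the tissue, the 9 tested hepatocyte markers averaged 12.32 to 12.47 on the control arrays, far above the table median. Whole liver was measured, and more cells of a type and more RNA per cell cannot be told apart.

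CCl4 is turned into a toxic radical by cytochrome P450 enzymes in hepatocytes around the central vein, and the dead cells are then cleared by resident Kupffer cells and by neutrophils and monocytes from the blood. Chemokines act through G protein-coupled receptors on leukocytes: Cxcl1 and Cxcl2 call neutrophils through Cxcr2, Ccl2 and Ccl7 call monocytes through Ccr2, Ccl3, Ccl6 and Ccl9 act on myeloid cells through receptors such as Ccr1, and Cxcl10 calls activated T cells and NK cells through Cxcr3. Many of these genes are known targets of the transcription factor NF-kB, which inflammatory cytokines and signals of cell damage switch on. Cxcl10 is also a known target of interferon.

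The promoters of 5 of these genes are shown because the genes took different courses in time: Cxcl1, Cxcl2 and Cxcl10 were raised first, Ccl9 was lowered first, and Ccl6 was raised late. The sequences are from RefSeq (GRCm38.p6) and run from 250 bases before to 50 bases after the annotated start, on the gene's own strand. Capitals mark matches to the NF-kB consensus and to the interferon-response (ISRE) core, which is GAAA, any 2 bases and GAAA again. They are Cxcl1 (chr5:90890995-90891294, plus strand), Cxcl2 (chr5:90903649-90903948, plus strand), Cxcl10 (chr5:92348840-92349139, minus strand), Ccl9 (chr11:83578587-83578886, minus strand) and Ccl6 (chr11:83593038-83593337, minus strand).
Cxcl1: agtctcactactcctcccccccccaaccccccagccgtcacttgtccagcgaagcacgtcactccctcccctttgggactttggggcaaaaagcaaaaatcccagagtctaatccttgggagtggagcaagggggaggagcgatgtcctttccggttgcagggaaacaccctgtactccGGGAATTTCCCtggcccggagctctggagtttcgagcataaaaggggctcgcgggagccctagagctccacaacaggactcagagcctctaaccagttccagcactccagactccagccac
Cxcl2: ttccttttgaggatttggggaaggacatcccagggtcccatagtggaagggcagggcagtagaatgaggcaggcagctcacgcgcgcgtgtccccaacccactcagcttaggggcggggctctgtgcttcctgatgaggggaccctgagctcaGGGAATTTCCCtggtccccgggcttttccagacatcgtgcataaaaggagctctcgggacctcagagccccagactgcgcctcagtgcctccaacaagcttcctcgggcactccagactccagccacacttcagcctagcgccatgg
Cxcl10: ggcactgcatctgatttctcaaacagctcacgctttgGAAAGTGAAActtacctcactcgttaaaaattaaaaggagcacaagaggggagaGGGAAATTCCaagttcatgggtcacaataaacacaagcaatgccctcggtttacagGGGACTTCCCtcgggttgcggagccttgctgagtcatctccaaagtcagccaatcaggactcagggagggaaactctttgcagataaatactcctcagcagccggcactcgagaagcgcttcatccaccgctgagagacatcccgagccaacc
Ccl9: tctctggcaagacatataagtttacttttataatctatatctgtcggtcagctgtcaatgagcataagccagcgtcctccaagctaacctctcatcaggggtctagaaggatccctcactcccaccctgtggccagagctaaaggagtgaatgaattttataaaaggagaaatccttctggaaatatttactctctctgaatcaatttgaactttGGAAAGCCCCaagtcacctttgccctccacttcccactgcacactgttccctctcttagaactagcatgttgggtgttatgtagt
Ccl6: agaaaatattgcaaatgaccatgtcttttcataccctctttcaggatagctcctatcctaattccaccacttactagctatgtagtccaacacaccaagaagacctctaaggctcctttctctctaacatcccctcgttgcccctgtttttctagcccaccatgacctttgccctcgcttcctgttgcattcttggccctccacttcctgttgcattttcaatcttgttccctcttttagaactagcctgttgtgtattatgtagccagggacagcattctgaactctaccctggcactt

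The NF-kB consensus, searched on both strands, was present in the promoters of Cxcl1, Cxcl2, Cxcl10 and Ccl9, 4 of the 7 members with a RefSeq promoter, and in 4.51% of all 32851 promoters of the same length. Cxcl1 and Cxcl2 hold the same 10 bases, GGGAATTTCC, at -71 to -62 and at -97 to -88 from the start, and this exact site occurs in 0.0883% of promoters. In both genes the match on the other strand overlaps it by all but 1 base. Cxcl10 has GGGAAATTCC at -159 to -150, GGGACTTCCC at -103 to -94, an AP-1 match (TGANTCA, in 7.81% of promoters) at -74 to -68 and the ISRE core (in 3.44%) at -213 to -204. In Ccl9 the NF-kB match lies at -35 to -26 on the opposite strand, which reads GGGGCTTTCC there, with an AP-1 match at -53 to -47. Its TATAAA matches (in 13.6% of promoters) lie at -92 to -87, and at -224 to -219 and -94 to -89 on the opposite strand. The Ccl6 and Ccl3 promoters hold none of the 5 motifs searched in this window, and Cxcl14 holds an ISRE core and GGGCGG boxes (in 35.7%). Cxcl2 also holds a GGGCGG box. The promoters of Ccl2, Ccl4 and Ccl7 are not shown. A match of letters is a description and not a measured binding site.

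**Figure D1:**
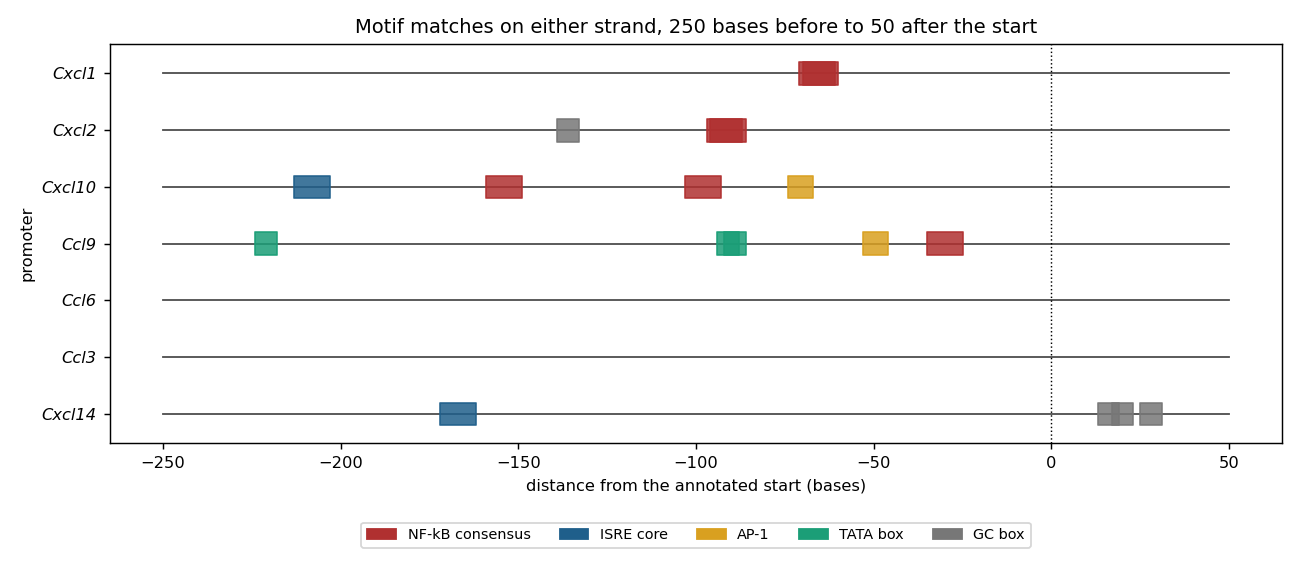
Motif matches on either strand in 7 chemokine promoters, with distance from the annotated start in bases on the x axis and 1 promoter per row; boxes are matches, coloured by motif. Cxcl1 and Cxcl2 each have 1 NF-kB position, Cxcl10 has 2, and Ccl6 and Ccl3 have no box.

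Cxcl1 was first called higher at 2 h, Cxcl2, Cxcl10 and Ccl2 at 8 h, and Ccl6 and Ccl7 at 1 d, while Ccl9 was lower before it was higher. With only the 2 groups compared in the fit, Ccl6 was called at 2 h (adjusted p = 0.026) and 8 h (adjusted p = 0.0233) and Ccl7 at 8 h (adjusted p = 0.0113), so the order of the CC chemokines depends on the fit. Genes were called where limma's Benjamini-Hochberg adjusted p over 13239 genes was under 0.05. At 2 h 1 of the 8 tested members was called higher (Cxcl1) and 1 lower (Ccl9), where 26.3% of all genes were called (6.41% higher, 19.9% lower). At 8 h 4 were higher and 1 lower (41.9% of all genes called, 17.7% higher and 24.2% lower), and at 1 d 6 were higher and 1 lower (50% called, 25% higher and 25.1% lower). At 2 d 6 were higher and 0 lower (40.1% called, 21.1% higher and 18.9% lower). One member was higher at 4 d (Ccl6; 6.95% called, 4.74% higher), 0 were called at 6 d (0.0227%) and at 8 d (0.144%), and 1 was higher at 16 d (Cxcl1; 1.51% called, 0.415% higher). Before adjustment, limma put Ccl9 alone under 0.05 at 6 d and no member at 8 d. The arrays of the 2 groups did not overlap in 3 members at 2 h (19.2% of all genes), 6 at 8 h (32.9%), 6 at 1 d (31.8%), 4 at 2 d (26.4%) and, on day 4, 1 (10.2%). The median log2 fold change of the 8 members against control was 0.18, 0.55, 1.09, 0.90, 0.07, 0.01, 0.07 and 0.07 from 2 h to 16 d, and that of all tested genes lay between -0.04 and -0.00. Ccl2 passed the filter only through its 8 h, 1 d and 2 d arrays, and Cxcl2 only through its 8 h and 1 d arrays. Their part in the counts and medians at these times was therefore built in by the filter.

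**Figure D2:**
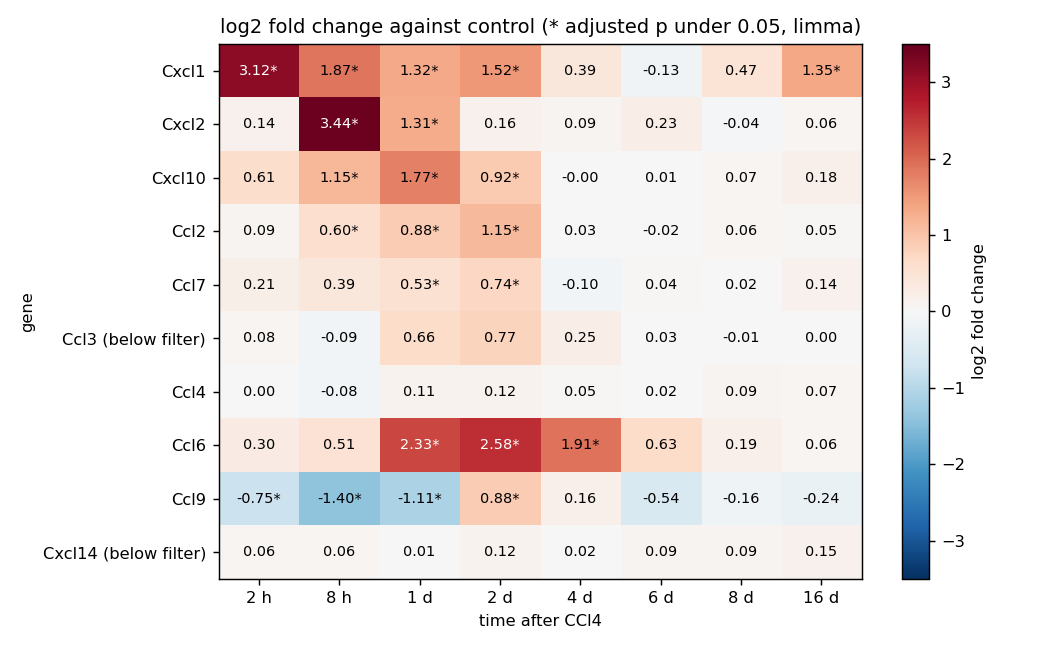
Log2 fold change against control (colour and printed value) for the 10 chemokines in rows at the 8 times in columns; an asterisk marks a limma adjusted p under 0.05. The highest value of Cxcl1 is at 2 h (3.12), of Cxcl2 at 8 h (3.44), of Cxcl10 at 1 d (1.77) and of Ccl6 at 2 d (2.58), while Ccl9 is below 0 at 2 h, 8 h and 1 d.

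Cxcl1, a neutrophil attractant, was the only tested member called higher at 2 h. It had 10.78, 10.72, 11.35, 11.73 and 10.84 at 2 h, against 7.95, 7.73, 8.01, 7.82 and 8.30 on the control arrays. No array of one group reached the other. This is a log2 fold change of 3.12 ± 0.38 (SE; adjusted p = 7.8e-08), or 8.71-fold. Cxcl1 then stayed raised at 8 h (1.87 ± 0.38, adjusted p = 8.7e-05), 1 d (1.32, adjusted p = 0.00399) and 2 d (2.87-fold, adjusted p = 0.00158), with every array above every control array at each of these times. From 4 d to 8 d it was not called. Its step at 8 h against 2 h was -1.25 ± 0.38 (adjusted p = 0.00905), but -0.77 (adjusted p = 0.156) without 8 h arrays 1 and 2, and its step at 4 d against 2 d was -1.14 (adjusted p = 0.0211), with adjusted p = 0.0703 without 4 d array 3 and 0.107 without 2 d arrays 4 and 5. The 2 other Cxcl1 probe sets gave 1.95 and 3.79 at 2 h and were called higher at 2 h, 8 h, 1 d and 2 d as well. The main probe set and one of the others carry a suffix (_s_at, _x_at) for probes that can also match related transcripts, so their sizes are less certain than that of the remaining one.

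At 16 d Cxcl1 was above control again in the average. The 16 d arrays had 8.79, 8.89, 8.48, 10.64, 8.55 and 10.55, all above the 7.73 to 8.30 of the control arrays. Arrays 4 and 6 stood over 1 log2 unit above the other 4. The log2 fold change was 1.35 ± 0.37 (adjusted p = 0.0494), and without arrays 4 and 6 it was 0.72 (adjusted p = 0.288). The call was also lost without any 1 control array and without any 1 of the 16 d arrays 2, 4, 5 and 6, with adjusted p between 0.0533 and 0.13. The x_at probe set, which had 8.33 to 8.99 on the 16 d arrays against 7.77 to 8.27 on control arrays, was not called (0.60, adjusted p = 0.139). The probe set without a suffix had 7.38 to 10.23 on the 16 d arrays against 6.42 to 7.47 on control arrays, a larger change that just missed the threshold (1.79, adjusted p = 0.0507). At 8 d one array (array 3, 10.02) was also high, while the other 4 lay between 7.45 and 8.72.

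Cxcl2, the other neutrophil attractant, lies beside Cxcl1 on chromosome 5 and shares its NF-kB site, but it was near its control level at 2 h. It had 3.98, 4.05, 4.20, 4.27 and 3.89 at 2 h, against 3.79, 4.08, 3.94, 4.06 and 3.84 in control. At 8 h the arrays had 6.43, 5.18, 9.21, 7.71 and 8.35, all above control but spread over 4 log2 units. The log2 fold change at 8 h was 3.44 ± 0.37 (adjusted p = 3.4e-10), and 4.48 without arrays 1 and 2. Cxcl2 passed the filter only through its 8 h and 1 d arrays, so a difference there was built into its selection. Its control mean lay 1.62 below the table median, and whether that is above background was not tested. At 1 d the arrays had 4.85, 4.08, 6.06, 5.64 and 5.60, and the change was 1.31 ± 0.37 (adjusted p = 0.0030). Array 2 was level with the highest control array. From 2 d on Cxcl2 was not called and its group means stayed between 3.90 and 4.17. The steps at 8 h against 2 h (3.30), 1 d against 8 h (-2.13) and 2 d against 1 d (-1.14) were all called, the last with adjusted p = 0.0136, or 0.0609 without 1 d array 3.

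The difference between the changes of Cxcl1 and Cxcl2 was tested directly. In the exact two-sided permutation test of Cxcl1 minus Cxcl2 against control, where the smallest p for 5 arrays against 5 is 0.00794, the difference was 2.99 ± 0.20 at 2 h (adjusted p = 0.0282 over 32 pair tests). At 8 h it was -1.56 ± 0.59 (adjusted p = 0.0635), which did not pass. At 1 d it was 0.01 ± 0.19 (adjusted p = 1), with both genes 1.31 to 1.32 above control, and at 2 d, when only Cxcl1 was called, it was 1.36 ± 0.17 (adjusted p = 0.0282). At 16 d it was 1.30 ± 0.43 (adjusted p = 0.0485, but 0.0635 without arrays 4 and 6 and 0.0693 with the x_at probe set of Cxcl1).

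Markers of neutrophils, the cells that Cxcl1 and Cxcl2 attract, were first called at 1 d. Of 12 tested neutrophil markers 0 were called by limma at 2 h and at 8 h (0 under 0.05 before adjustment at both), 4 were higher and 3 lower at 1 d, and 2 were higher and 3 lower at 2 d. The 1 d counts are near the 25% and 25.1% of all genes called higher and lower, and the median change of the 12 at 1 d was -0.09. The 2 d counts are near the 21.1% and 18.9% of all genes called higher and lower then. The mean of the 12 lay between 5.97 and 6.15 at 8 h and between 6.15 and 6.77 at 1 d, against 6.01 to 6.17 in control. S100a8, a calcium-binding protein abundant in neutrophils, had 7.08, 6.46, 9.09, 8.99 and 9.45 at 1 d, against 4.63 to 5.41 in control (log2 fold change 3.25 ± 0.49, adjusted p = 5e-07). S100a9, its partner, rose by 2.10, and Fpr2, a formyl peptide receptor, by 0.73. The fourth was Il1r2, a decoy receptor of interleukin-1 (0.27), and the 3 lower ones were the granule protein genes Ngp (-0.39), Mpo (-0.33) and Ltf (-0.20), all 4 named after their values were seen. Ly6g was not analysed here. Arrays 1 and 2 were lowest for S100a8 at 1 d, as they were for Cxcl1 and Cxcl2, and the part of these cells in the chemokine values was not tested. Without those 2 arrays, Cxcl1 was at 1.70 and Cxcl2 at 1.83 above control at 1 d. Cxcr2, the receptor of both, was not called at any time (-0.22 at 1 d, adjusted p = 0.0898).

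**Figure D3:**
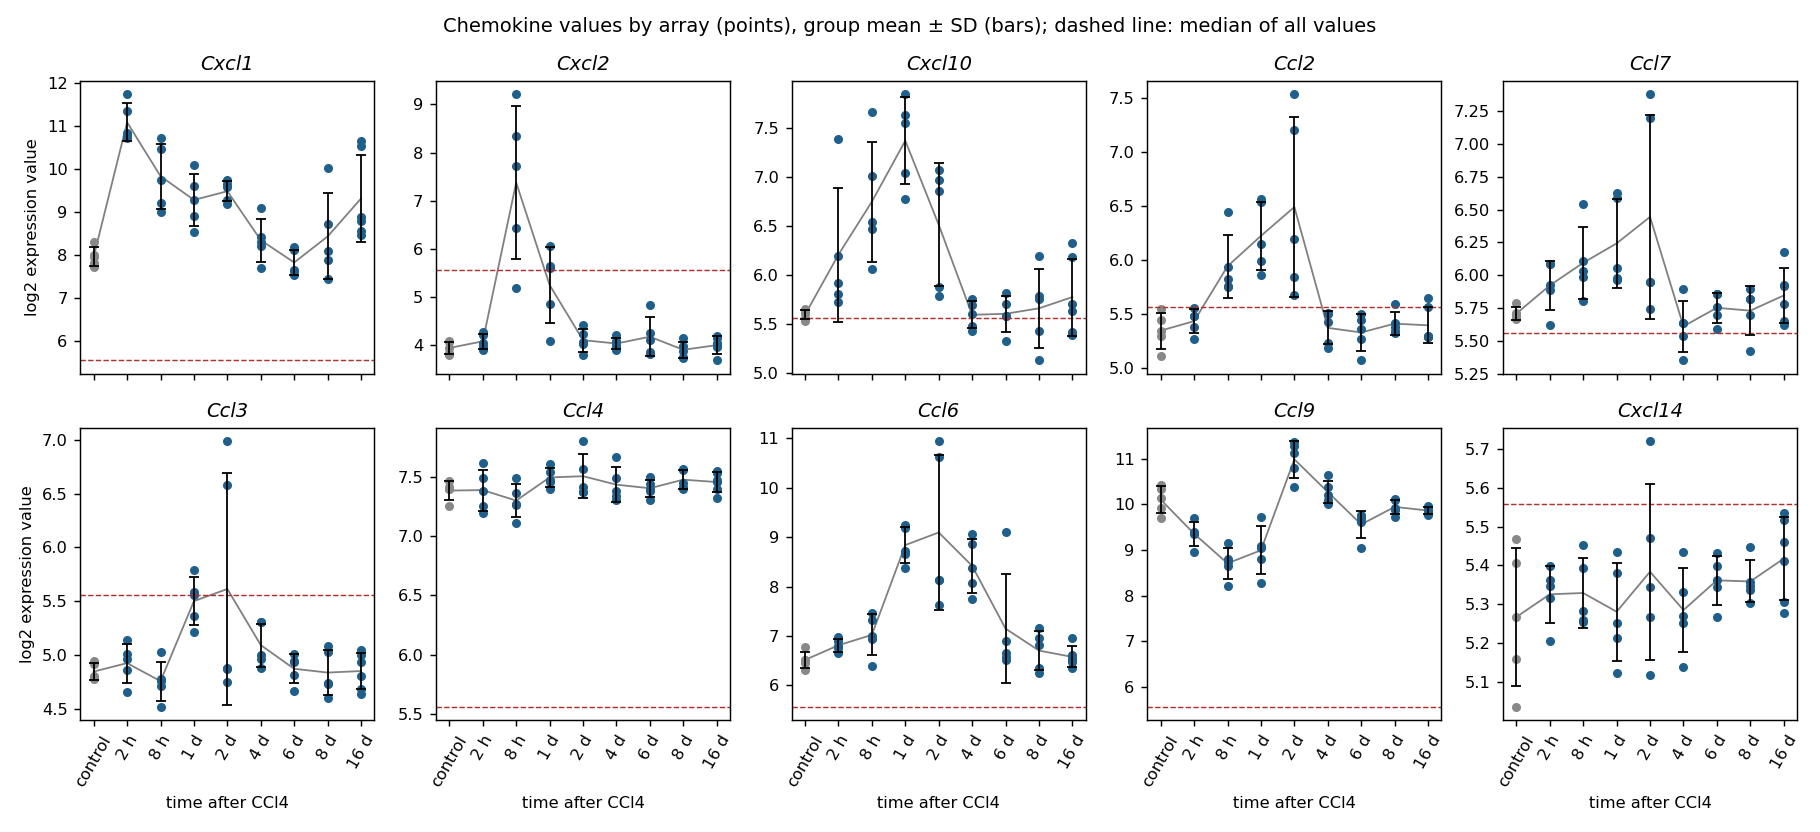
Log2 values of the 10 chemokines (panels) on each of the 46 arrays (points; control grey, CCl4 blue) by time, with group mean and SD (bars) and the table median of 5.56 (dashed). Cxcl1 is highest at 2 h and Cxcl2 at 8 h, 2 of 5 arrays at 2 d stand apart in Ccl2, Ccl3, Ccl6 and Ccl7, and Ccl4 and Cxcl14 are near flat.

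Cxcl10, the interferon-inducible attractant of T and NK cells, was raised from 8 h to 2 d, with its highest mean at 1 d. At 2 h it had 5.81, 6.20, 7.39, 5.72 and 5.92, against 5.53, 5.65, 5.61, 5.62 and 5.57 in control, and all 5 were higher, though the change of 0.61 ± 0.27 did not pass (adjusted p = 0.0851). At 8 h the arrays had 7.66, 7.01, 6.54, 6.06 and 6.47 (1.15 ± 0.27, adjusted p = 0.000435). At 1 d they had 7.84, 6.78, 7.63, 7.04 and 7.55 (1.77 ± 0.27, adjusted p = 4.7e-07). Every array at 8 h, 1 d and 2 d was above all control arrays. At 2 d the arrays split into 6.85, 6.97 and 7.07 (arrays 1, 4 and 5) and 5.79 and 5.88 (arrays 2 and 3), and the change of 0.92 (adjusted p = 0.00571) was 0.58 (adjusted p = 0.145) without arrays 4 and 5. The step at 2 d against 1 d was -0.85 (adjusted p = 0.011), with adjusted p = 0.0584 without 2 d array 2 and 0.0521 without array 3, and the step at 4 d against 2 d was -0.92 (adjusted p = 0.00764), or adjusted p = 0.171 without 2 d arrays 4 and 5. From 4 d on the group means were within 0.18 of control.

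Of 12 other interferon-response genes tested, 0 were higher and 2 lower at 2 h, 1 was higher and 1 lower at 8 h, and 3 were higher and 0 lower at 1 d, the same share as the 25% of all genes called higher. In 7 of the 12 every 2 h array lay below every control array, and in 0 above (19.2% of all genes did not overlap). Their median change at 2 h was -0.23, against -0.03 for all genes. At 2 d 2 were higher and 1 lower. The shares of all genes higher and lower were 6.41% and 19.9% at 2 h and 17.7% and 24.2% at 8 h. At 2 d they were 21.1% and 18.9%. The interferon-response counts at 2 h, 8 h and 2 d were near or below these shares. At 4 d, when Cxcl10 was not called, 3 of the 12 were higher and 0 lower (Ifit2 1.09, Gbp3 0.59 and Oas1a 0.46, named after their values were seen). Among all genes 4.74% were higher at 4 d. The mean of the 12 was 7.85 and 7.60 on 1 d arrays 1 and 2 and 6.80 to 7.06 on the other 3, and 7.18 to 7.52 at 4 d, against 6.98 to 7.10 in control. The 3 higher at 1 d were Rsad2, an antiviral enzyme (1.22 ± 0.33, adjusted p = 0.00211), Gbp2, a guanylate-binding protein (0.77, adjusted p = 0.00193), and Irf7, a transcription factor (0.23, adjusted p = 0.0334). Cxcl9, a Cxcr3 ligand like Cxcl10 and known to be induced by interferon gamma, was lower at 2 h (-0.63), 8 h (-0.97 ± 0.18, adjusted p = 1.8e-05) and 2 d (-0.83). Cxcl11, the remaining Cxcr3 ligand, was lower at 2 h (-0.32) and 1 d (-0.38) and was named after its values were seen. Cxcr3 itself was called only at 1 d (-0.18 ± 0.07, adjusted p = 0.0319), and of 6 tested T and NK cell markers 0 were higher and 2 lower at 1 d: Prf1, the pore-forming protein of killer cells (-0.27), and Ncr1, an NK cell receptor (-0.21). Of all genes 25.1% were called lower at 1 d.

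Ccl2 and Ccl7, the monocyte attractants, lie beside each other on chromosome 11 and were raised from 8 h or 1 d to 2 d. Ccl2 had 5.93, 5.83, 6.44, 5.75 and 5.75 at 8 h and 6.15, 5.86, 6.54, 6.57 and 5.99 at 1 d, against 5.44, 5.29, 5.54, 5.34 and 5.10 in control. All these arrays were above control, with changes of 0.60 ± 0.20 at 8 h (adjusted p = 0.0138, and 0.0685 without 8 h array 3) and 0.88 at 1 d (adjusted p = 0.000319). At 2 d Ccl2 had 6.20, 5.67, 5.84, 7.54 and 7.20, a change of 1.15 ± 0.20 (adjusted p = 1.3e-05), and 0.56 (adjusted p = 0.0029) without arrays 4 and 5. At 4 d it was 0.03 above control and not called, and the step at 4 d against 2 d was -1.12 (adjusted p = 3e-05). Ccl2 passed the filter only through its 8 h, 1 d and 2 d arrays, all of which were above the table median. Elsewhere only 1 array at 8 d and 2 at 16 d were above it. A difference between those times and control was therefore built into its selection, as for Cxcl2.

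Ccl7 was called higher at 1 d and 2 d. At 8 h all its arrays (5.80 to 6.54) were above control, but the change of 0.39 did not pass (adjusted p = 0.112, but 0.0113 with only the 2 groups compared and 0.0357 with array weights). Its arrays at 1 d had 5.98, 5.96, 6.59, 6.63 and 6.06, against 5.72, 5.67, 5.79, 5.70 and 5.67 in control. No array overlapped control, and the change was 0.53 ± 0.20 (adjusted p = 0.0213), with adjusted p = 0.0698 without 1 d array 3 and 0.0758 without array 4. At 2 d it had 5.95, 5.95, 5.75, 7.38 and 7.20, where only arrays 4 and 5 stood well above control. The change of 0.74 ± 0.20 (adjusted p = 0.00263) was 0.17 (adjusted p = 0.393) without these 2 arrays, and the step of -0.83 at 4 d against 2 d was then -0.27 (adjusted p = 0.196). The difference of the Ccl2 and Ccl7 changes was 0.35 ± 0.07 at 1 d (exact permutation, adjusted p = 0.0282). It was called at none of the 7 other times, though at 2 d it was larger, 0.41 ± 0.11 (same test, adjusted p = 0.0635). Both genes are read near the table median (control means 5.34 for Ccl2, below it, and 5.71 for Ccl7, above it). Their receptor Ccr2 was not called at any time, with log2 fold changes of -0.09 to 0.14.

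Ccl6 and Ccl9 are sister genes, next to each other on chromosome 11, whose products act on myeloid cells through Ccr1. They took different courses. Ccl6 had 8.71, 8.38, 8.66, 9.25 and 9.19 at 1 d, against 6.51, 6.45, 6.77, 6.31 and 6.52 in control. No array overlapped, and the change was 2.33 ± 0.42 (adjusted p = 1.1e-05), after 0.30 at 2 h and 0.51 at 8 h, which did not pass in the fit of all groups. At 2 d it had 8.14, 8.13, 7.63, 10.95 and 10.63, which is 2.58 above control (adjusted p = 3.6e-06) and 1.45 without arrays 4 and 5 (adjusted p = 0.00116). At 4 d it had 8.86, 8.06, 7.74, 8.38 and 9.06, still above every control array (1.91, adjusted p = 0.00189), and it was the only tested member called at 4 d. At 6 d 4 arrays lay between 6.50 and 6.89 and array 4 at 9.11, and the change of 0.63 was not called. The second Ccl6 probe set was called higher at 1 d, 2 d and 4 d as well (1.57, 1.67 and 1.32).

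Ccl9 was lowered first and raised at 2 d. It had 9.35, 9.40, 8.96, 9.38 and 9.69 at 2 h and 8.65, 9.15, 8.80, 8.73 and 8.21 at 8 h, against 10.43, 9.91, 10.14, 9.69 and 10.34 in control. All arrays at these times were below control, 1 at 2 h only just, with changes of -0.75 ± 0.19 (adjusted p = 0.00266) and -1.40 ± 0.19 (adjusted p = 5.6e-08). At 1 d it had 8.28, 9.73, 8.81, 9.05 and 9.09, and its change was -1.11 (adjusted p = 4e-06), with array 2 just inside the control range. At 2 d it had 11.12, 10.37, 11.36, 11.27 and 10.81 and had turned to 0.88 above control (adjusted p = 0.000244), with array 2 overlapping control. The step at 2 d against 1 d, 1.99 ± 0.19 (adjusted p = 3.3e-11), was the largest called rise of Ccl9 between neighbouring times, and all arrays at 2 d were above all at 1 d. At 4 d it was 0.16 above control and not called, and the step at 6 d against 4 d was -0.71 (adjusted p = 0.00956), or adjusted p = 0.0554 without 6 d array 5. Its second probe set was called lower at 2 h (-0.54), 8 h (-1.21) and 1 d and higher at 2 d (1.08).

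The difference of the Ccl6 and Ccl9 changes was positive at 2 h (1.05 ± 0.21), 8 h (1.90 ± 0.30), 1 d (3.44 ± 0.33) and 4 d (1.74 ± 0.19), and each of these reached the exact permutation minimum of 0.00794 (adjusted p = 0.0282). At 6 d it was 1.18 ± 0.51 (adjusted p = 0.0282, but 0.0635 and 0.0977 with the other Ccl6 or Ccl9 probe set). At 2 d, when both were above control, it was 1.70 ± 0.72 (adjusted p = 0.0781).

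Markers of monocytes and macrophages were called higher at the times when Ccl6 was. Of 12 tested, limma called 0 at 2 h (2 were under 0.05 before adjustment), 1 was higher and 3 lower at 8 h, and 5, 7 and 4 were higher with 0 lower at 1 d, 2 d and 4 d. The mean of the 12 was 7.25 to 7.65 at 1 d, 6.99 to 8.18 at 2 d and 7.17 to 7.48 at 4 d, against 6.45 to 6.54 in control. Cd68, a lysosomal macrophage protein, rose at 1 d (2.57), 2 d (2.63, adjusted p = 3.7e-15) and 4 d (1.66), as did Chil3 (3.57) and Lyz2, a lysozyme (1.66), at 2 d. Chil3, among the 7 higher at 2 d, was above the table median only on its 1 d and 2 d arrays and 6 d array 4. Its rise at 1 d and 2 d was therefore built into its selection. Cd68 is also 1 of the 2 genes whose 9 group means were most like those of Ccl6. Of 12 Kupffer cell markers 1 was higher and 4 lower at 2 h and 1 higher and 8 lower at 8 h, when Cd163, a haemoglobin scavenger receptor, was higher (0.89) and Cd5l (-0.65) and Vsig4 (-0.55) were lower. At 1 d 3 were higher and 3 lower, and 6 were higher and 1 lower at 2 d and again at 4 d. Among all genes 6.41% were higher and 19.9% lower at 2 h, and 17.7% and 24.2% at 8 h. These shares were 25% and 25.1% at 1 d and 21.1% and 18.9% at 2 d, and 4.74% were higher at 4 d. The 3 macrophage markers lower at 8 h and the 1 d Kupffer cell counts were near the shares of all genes. Clec4f, the defining Kupffer cell lectin, was lower at 2 h (-0.40), 8 h (-0.45) and 1 d (-0.64), was not called at 2 d and was higher at 4 d (0.64, adjusted p = 0.00251). Marco, another marker on the Kupffer cell list, went the other way at 1 d, with 8.46 to 9.66 against 6.54 to 6.79 in control. It was named after its values were seen. Adgre1, which encodes the F4/80 antigen, was lower at 8 h (-0.78) and higher at 4 d (0.82). Ccl9 was also lower at 2 h, 8 h and 1 d. Whether the numbers of these cells set the chemokine values was not tested.

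Ccl3 and Ccl4, attractants of myeloid cells and lymphocytes, are also neighbours on chromosome 11. Ccl3 was below the table median on most arrays. Ccl3 had 5.21, 5.36, 5.58, 5.79 and 5.56 at 1 d, against 4.92, 4.79, 4.94, 4.78 and 4.81 in control. All 5 arrays were above control, though only 2 were above the table median. At 2 d it had 4.87, 4.87, 4.75, 6.99 and 6.59, with only arrays 4 and 5 raised. Tested without the filter over 18193 genes, limma gave 0.66 ± 0.23 at 1 d (adjusted p = 0.0231) and 0.77 at 2 d (adjusted p = 0.00998). Ccl4 was above the median on all 46 arrays, with group means of 7.30 to 7.50, and was called at no time, nor in the F-test over all groups (adjusted p = 0.254; 83.4% of all genes passed it). The other 7 tested members passed that test (adjusted p = 0.00192 for Ccl7 and smaller for the others). At 1 d the Ccl3 change exceeded that of Ccl4 by 0.54 ± 0.08 (exact permutation, adjusted p = 0.0282).

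Cxcl14, an epithelial chemokine on chromosome 13, stayed below the table median on 45 of 46 arrays by its main probe set, whose group means spanned only 0.15. Its second probe set had 3.93, 4.33, 4.85, 4.57 and 4.78 at 1 d and 3.98, 4.56, 4.14, 5.67 and 5.61 at 2 d, against 3.91, 3.80, 3.87, 3.68 and 3.60 in control. All these arrays were above control, and without the filter the changes were 0.72 ± 0.20 (adjusted p = 0.00391) and 1.02 (adjusted p = 0.00012). The probe sets of Cxcl14 therefore disagree at 1 d and 2 d.

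With respect to the table median, 4 members (Ccl2, Ccl3, Cxcl2 and Cxcl14) had means below it in control, and the same number lay below it at 2 h, 4 d, 6 d, 8 d and 16 d. At 8 h 2 members lay below it, at 1 d 3 and at 2 d 2. Cxcl2 was above it on 7 arrays in all (4 at 8 h and 3 at 1 d), Ccl3 on 4 (2 each at 1 d and 2 d), Ccl2 on 18, Cxcl10 on 38 and Ccl7 on 43, while Ccl4, Ccl6, Ccl9 and Cxcl1 were above it on all 46. When the 9 groups were ordered by each member's mean, neighbouring groups in that order had overlapping arrays in 79 of 80 cases. The exception was Ccl2 at 8 h and 2 h, which are also neighbouring times (0.51 ± 0.20, adjusted p = 0.0428). That call was lost without 2 h array 2, 3, 4 or 5 or 8 h array 1 or 3, each in turn, with adjusted p between 0.0556 and 0.165. The highest mean was at 2 h for Cxcl1 (11.09 ± 0.44, SD, n = 5), at 8 h for Cxcl2 (7.38 ± 1.59), at 1 d for Cxcl10 (7.37 ± 0.44), at 16 d for Cxcl14 (5.42 ± 0.11, n = 6) and at 2 d for the 6 CC chemokines. For Ccl2, Ccl3, Ccl4, Ccl6 and Ccl7 the 2 d and 1 d means came first and next in the order, with overlapping arrays. For these 5 genes the place of 2 d above 1 d rests on 2 d arrays 4 and 5. Without them the change at 2 d against 1 d was -0.32 for Ccl2, -0.87 for Ccl6 (adjusted p = 0.0462), -0.36 for Ccl7 and -0.11 for Ccl4, and the other 3 arrays of Ccl3 at 2 d (4.75 to 4.87) lay below all of its 1 d arrays (5.21 to 5.79).

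Between neighbouring times, 4 of the 8 tested members were called at 8 h against 2 h (2 higher, 2 lower; 35.9% of all genes called) and 2 at 1 d against 8 h (Ccl6 higher by 1.82, Cxcl2 lower; 31.7%). At 2 d against 1 d 3 were called (Ccl9 higher, Cxcl2 and Cxcl10 lower; 32.4%), and at 4 d against 2 d 5 were lower and 0 higher (Ccl2, Ccl7, Ccl9, Cxcl1 and Cxcl10; 31.3% called, 17.9% lower). At 6 d against 4 d Ccl6 and Ccl9 were lower (10.8% called), though for Ccl6 the step of -1.27 (adjusted p = 0.041) was lost without 4 d array 1, 4 or 5 or 6 d array 1, 2, 3 or 5, each in turn, with adjusted p between 0.0594 and 0.119. For Ccl9 it was lost without 6 d array 5. Some steps that did not pass were called without 1 array: Cxcl10 at 8 h against 2 h without 2 h array 3 (0.83) or 8 h array 4 (0.71), Cxcl10 at 1 d against 8 h without 8 h array 1 (0.85) or 1 d array 2 (0.77), Ccl4 at 1 d against 8 h without 8 h array 1 (0.24) or 1 d array 2 (0.22), and Ccl9 at 1 d against 8 h without 1 d array 1 (0.46). Later steps called 0 members by limma (0.00755% and 0% of genes). Before adjustment only Ccl9 at 8 d against 6 d and Cxcl1 at 16 d against 8 d were under 0.05.

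Some arrays stood apart within their time. At 2 d arrays 4 and 5 were the 2 highest in 6 of the 8 tested members, as in 19.9% of all tested genes, and stood over 1 log2 unit above the other 3 in Ccl2, Ccl6 and Ccl7, as in 0.37% of genes. On the same arrays the macrophage marker mean was 8.06 and 8.18, against 6.99 to 7.27 on the other 3, the stellate cell marker mean was 8.13 and 8.40, against 7.49 to 7.89, and Ccr1 was 7.50 and 7.11, against 5.42 to 5.62. At 8 h arrays 3 to 5 were highest in Ccl6, Cxcl1 and Cxcl2 (12.2% of genes had this order), and at 16 d arrays 4 and 6 were highest in 4 members (11%) but over 1 unit apart only in Cxcl1 (0.0227%). At 1 d array 1 had the lowest hepatocyte marker mean (10.53, against 11.43 to 11.64 on the other 4 arrays) and the lowest array weight in limma (0.168). At 6 d array 4, high in Ccl6, also had the highest macrophage marker mean (7.07, against 6.45 to 6.61).

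**Figure D4:**
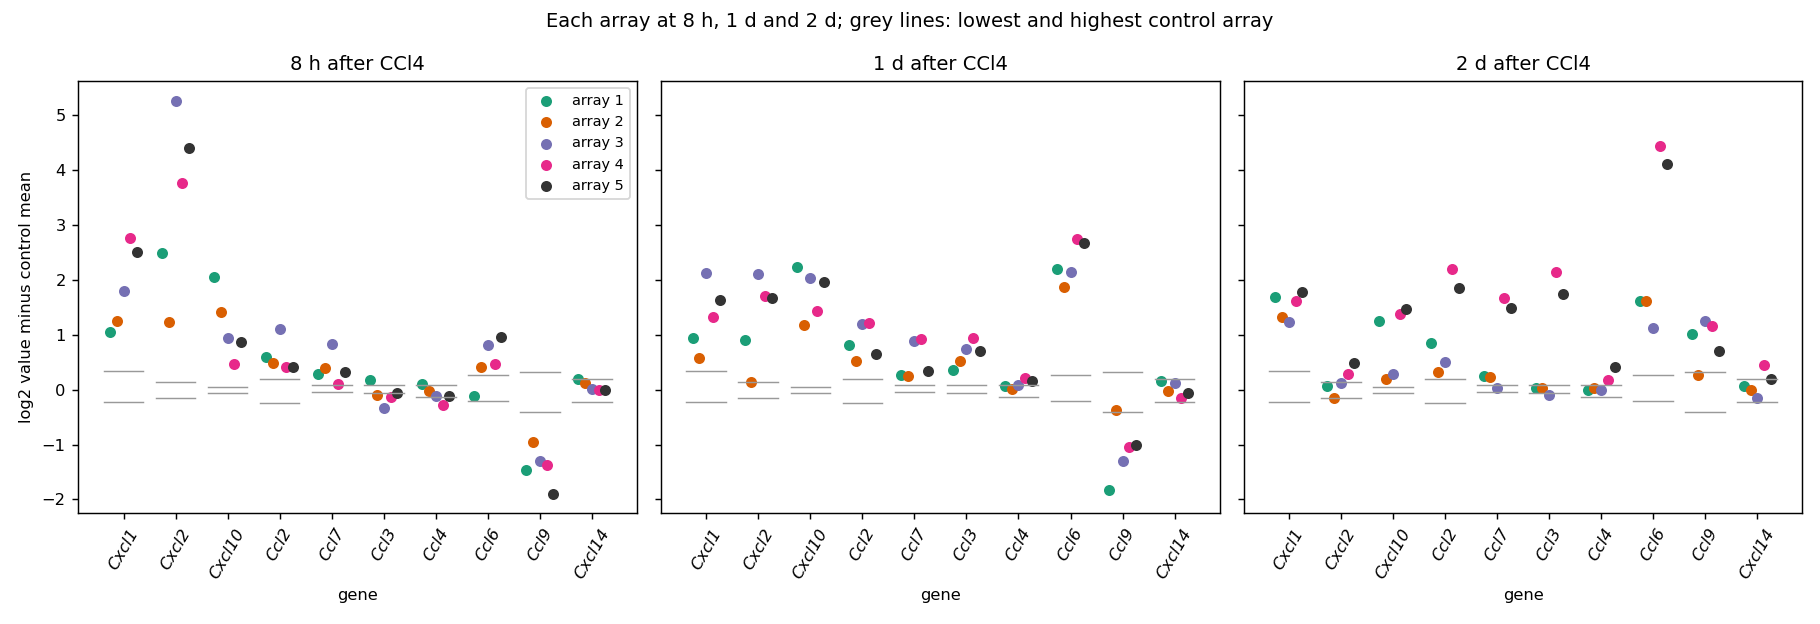
Log2 value minus the control mean for each chemokine (x axis) on each of 5 arrays (coloured points) at 8 h, 1 d and 2 d (panels); grey lines are the lowest and highest control array. At 2 d arrays 4 and 5 are separate from the other 3 in Ccl2, Ccl7, Ccl3 and Ccl6 but not in Cxcl1 or Ccl9.

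Of 27 other chemokines listed, 25 were on the array and 16 were tested: 0 were higher and 3 lower at 2 h, 0 and 4 at 8 h, 1 and 3 at 1 d, 1 and 2 at 2 d, and 1 and 0 at 4 d, with 0 called by limma from 6 d on (1, 1 and 2 under 0.05 before adjustment). Of all genes 6.41% were higher and 19.9% lower at 2 h, and 17.7% and 24.2% at 8 h. The shares were 25% and 25.1% at 1 d and 21.1% and 18.9% at 2 d. From 2 h to 2 d the counts of other chemokines were near or below these shares. Cxcl12, the ligand of Cxcr4 that stromal cells make, was lower at 2 h (-0.94), 8 h (-1.05 ± 0.17, adjusted p = 1.2e-06) and 1 d (-0.94). Ccl27a was lower at 8 h (-0.91), 1 d (-0.56) and 2 d (-0.34). Pf4, a chemokine of platelets and some macrophages, had 8.13, 8.47, 7.40, 8.50 and 9.38 at 2 d, against 6.02 to 6.57 in control (2.02 ± 0.17), and remained higher at 4 d (0.85). Ccl5 was higher at 1 d (0.78 ± 0.16), with 6.36 and 6.72 on arrays 1 and 2 and 7.45 to 7.71 on the other 3. Pf4 and Ccl5 were named after their values were seen.

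Of 23 listed chemokine receptors 21 were on the array and 12 were tested. Limma called 0 at 2 h (3 were under 0.05 before adjustment: Ackr2, Ackr4 and Ccrl2, named after their values were seen), 1 was higher at 8 h, 1 higher and 2 lower at 1 d, 2 higher and 2 lower at 2 d, and 0 later. Ccr1, the shared receptor of Ccl3, Ccl6 and Ccl9, had 5.42, 5.62, 5.55, 7.50 and 7.11 at 2 d, against 5.37, 5.16, 4.92, 5.10 and 4.85 in control (1.16 ± 0.22, adjusted p = 6.5e-05). Its arrays 4 and 5 were again the high ones. Ccr1 was below the table median on every control array and passed the filter through its 1 d and 2 d arrays. A difference there was therefore built into its selection. Ccr4 was lower (-0.32) and Cx3cr1 higher (0.24) at 2 d. Ackr2, a decoy receptor that removes inflammatory CC chemokines, was higher at 8 h (1.05 ± 0.15). The receptor counts were near or below the shares of all genes. Those were 17.7% higher and 24.2% lower at 8 h, 25% and 25.1% at 1 d, and 21.1% and 18.9% at 2 d.

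**Figure D5:**
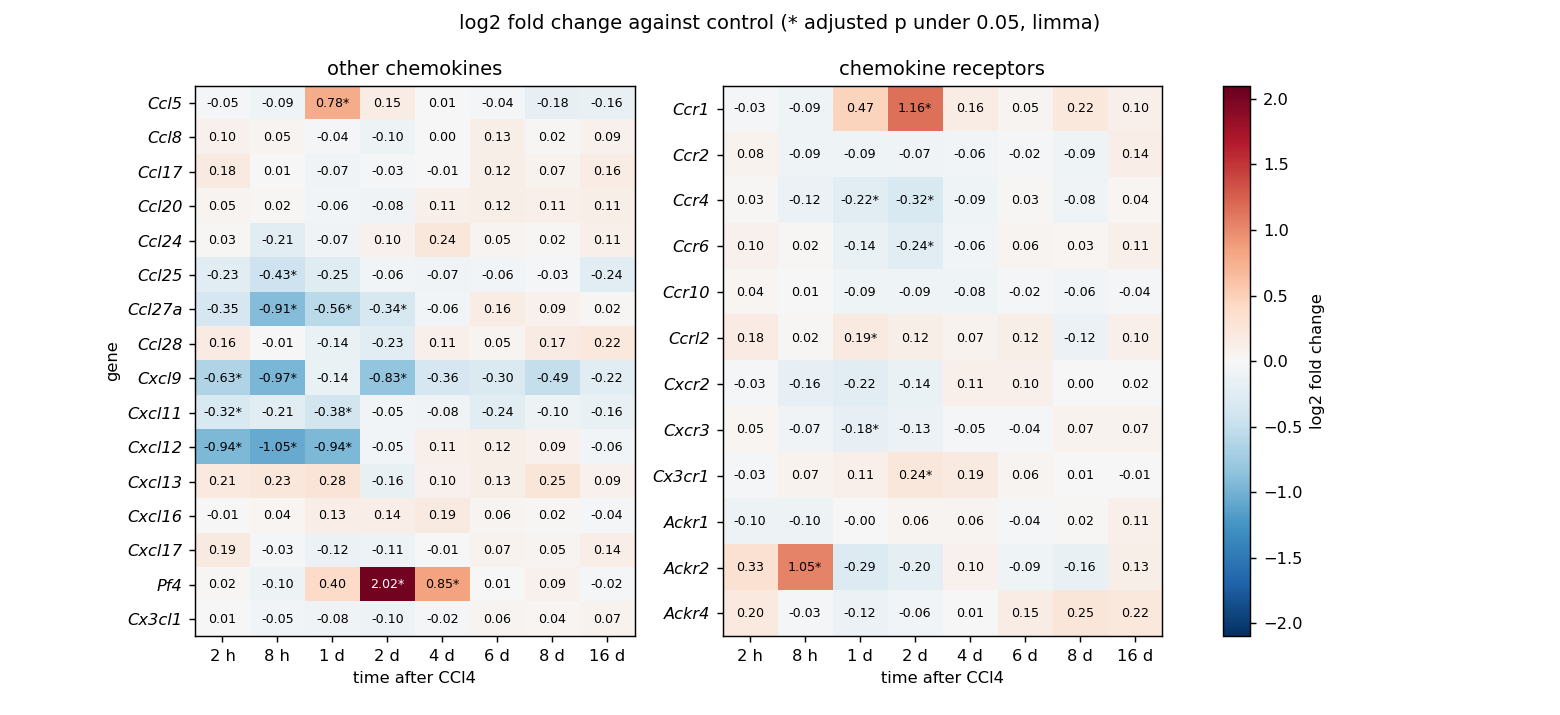
Log2 fold change against control for 16 other chemokines (left) and 12 chemokine receptors (right) at the 8 times, with an asterisk for a limma adjusted p under 0.05. Pf4 is highest at 2 d (2.02), Cxcl12 is below 0 from 2 h to 1 d, and Ccr1 is highest at 2 d (1.16) and Ackr2 at 8 h (1.05).

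Genes of NF-kB signalling and its feedback were called in the period when the chemokines were raised, as were 26.3% to 50% of all genes. Of 16 tested, 5 were higher and 1 lower at 2 h, 6 and 2 at 8 h, 9 and 0 at 1 d, 5 and 1 at 2 d, and 0 from 4 d on (1, 1, 4 and 0 under 0.05 before limma's adjustment). Ier3, an immediate early gene, was the largest (2.11 at 2 h, 1.44 at 8 h, 3.15 ± 0.36 at 1 d and 1.66 at 2 d), followed at 1 d by Nfkbiz, a nuclear cofactor of NF-kB (1.06), and Icam1, the adhesion molecule to which leukocytes bind (1.03). Of the inflammatory cytokines 8 were tested: 1 was higher and 1 lower at 2 h, 0 and 2 at 8 h, 1 and 2 at 1 d, and 1 and 3 at 2 d. All tested genes had 6.41% higher and 19.9% lower at 2 h, and 17.7% and 24.2% at 8 h. They had 25% and 25.1% at 1 d and 21.1% and 18.9% at 2 d. The cytokines lower at 8 h and 1 d were near these shares. Il18 was lower at 2 d (-0.44) and Csf3 too (-0.33), and Csf1, a growth factor of macrophages, was higher (0.42).

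Of stellate cell markers, 3 of 11 tested were higher and 1 lower at 1 d and 8 higher and 0 lower at 2 d, led by Col3a1 (2.25), Acta2 (2.08) and Tagln (1.83), which encode collagen and contractile proteins. Hepatocyte markers fell: 5 of 9 were lower at 8 h, 7 at 1 d (Glul -2.79, Hal -2.08, Cyp2e1 -1.65) and 5 at 2 d, with 0 higher at these times. Among all genes 25% were higher at 1 d and 21.1% at 2 d, so the stellate cell count at 1 d was near that share. Lower were 24.2% of all genes at 8 h, 25.1% at 1 d and 18.9% at 2 d. The part of stellate cells and hepatocytes in the chemokine values was not tested.

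Among 11035 other genes that passed the F-test, those whose 9 group means were most like a member's, by Pearson correlation and as a description over groups that share arrays, were Irf2bp2 (0.92) and Mideas (0.91) for Cxcl1, Rras2 (1.00) and Tmem11 (0.99) for Cxcl2, and Aldoa (0.99) and Psmc5 (0.99) for Cxcl10. They were Cks1b (0.99) and Ranbp1 (0.99) for Ccl2, Rpp30 (0.97) and Exosc2 (0.96) for Ccl7, Ms4a6d (0.98) and Cd68 (0.98) for Ccl6, Myh10 (0.99) and Prps2 (0.99) for Ccl9, and Mad2l2 (0.92) and Dtx4 (0.92) for Ccl4. Ccl4 itself did not pass the F-test (adjusted p = 0.254), so its likeness is to group means that were not called different. Among the members themselves Ccl2 and Ccl7 were the most alike (0.96), while Cxcl1 with Cxcl2 had 0.31, Ccl6 with Ccl9 0.29 and Ccl9 with Cxcl2 -0.70, each over 9 group means.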

How the data were processed

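Livers were measured on 46 Affymetrix mouse genome arrays, hybridised with biotin-labelled cRNA made from oligo-dT primed cDNA, per the labels' protocols. The deposited log2 values were made by the authors with RMA in oligo 1.52.0, per the submitters' processing notes. RMA corrects background, quantile-normalizes arrays and summarises probes, so shifts common to most genes are removed, and low values are compressed. Batch and scan time are not given in the sources used here, so batch effects could not be checked.

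Of 45101 probe sets, 34945 named 1 gene, 932 several, 9160 none, and 64 were controls. Symbols were updated for 34741 through Entrez IDs. A gene was tested where at least 5 arrays exceeded the table median. One limma fit (limma 3.58.1, R 4.3.3) of 9 group means, with 37 residual degrees of freedom, gave the 8 comparisons with control, 7 steps and an F-test. P-values were adjusted by Benjamini-Hochberg within a contrast. The number of arrays limits precision (median SE at 2 h 0.10). Differences between neighbouring genes used two-sided exact permutation tests over 32 tests. The fit and the exact test were tested on simulated data. Promoters were matched by symbol (7 of 10). Figures used Python 3.11.15 with matplotlib 3.10.9 and pandas 2.3.3.

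All 10 members were named, with the 3 called genes of largest change of each other list at the time when most of it was called, the main receptors, defining cell markers, and the 2 genes most like each member. Members and lists were chosen with earlier results of these data known. Alternatives changed the filter, scaling, probe set, groups fitted, variance model or array weights, added a replicate block, or left out single arrays. Fits without pairs of arrays at 8 h, 2 d and 16 d were added after seeing the data. Array numbers do not pair the groups: deviations of arrays with the same number had a median correlation of 0.0093 over 180 pairs, 40 of them over 0.1.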

Additional observations from a re-analysis of the deposited data

Results flagged for a closer look

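In 4 of 90 groups of arrays checked (10 chemokines in 9 groups), 1 array lay farther from its neighbour than Dixon's test allows, and chance alone gives about 1 in 20. Array 3 at 8 h had 6.44 for Ccl2, and the other 4 arrays had 5.75 to 5.93. Array 4 at 6 d had 9.11 for Ccl6, and the others had 6.50 to 6.89. Array 5 at 6 d had 9.03 for Ccl9, below the 9.61 to 9.76 of the others. Array 3 at 2 h had 7.39 for Cxcl10, and the others had 5.72 to 6.20.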

How the results depend on the processing

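Counts of called members are out of 8. At 8 h against control the count of 5 was 3 with the stricter filter (23 arrays). At 16 d against control the count of 1 was 0 with no filter, with cyclic loess, with the mean of all probe sets, with only the 2 groups compared, with trend and robust variance, with the replicate block and without arrays 4 and 6 at 16 d. At 8 h against 2 h the count of 4 was 2 with the stricter filter and 2 without arrays 1 and 2 at 8 h. At 1 d against 8 h the count of 2 was 1 with the stricter filter, 4 with array weights and 4 without arrays 1 and 2 at 8 h. At 4 d against 2 d the count of 5 was 2 without arrays 4 and 5 at 2 d, and at 6 d against 4 d the count of 2 was 1 with the mean of all probe sets, only the 2 groups, or trend and robust variance. With each array left out in turn, counts ranged from 4 to 5 at 8 h, 6 to 7 at 1 d, 0 to 1 at 16 d, 3 to 5 at 8 h against 2 h, 2 to 4 at 1 d against 8 h, 2 to 3 at 2 d against 1 d, 4 to 5 at 4 d against 2 d and 0 to 2 at 6 d against 4 d, and stayed at 2, 6, 1, 0 and 0 at 2 h, 2 d, 4 d, 6 d and 8 d and at 0 for the last 2 steps. The stricter filter left fewer members to test; the cause of the other changes was not tested. The replicate block, with Cxcl1 at 16 d at 1.11 (adjusted p = 0.11), changed no other call of a member. Without arrays 4 and 5 at 2 d, Ccl6 at 2 d against 1 d, 0.26 and not called, turned to -0.87 and was called (adjusted p = 0.0462). Other signs turned there with no call in either fit: at 2 d against 1 d Ccl2 (0.27, then -0.32), Ccl7 (0.20, then -0.36) and Ccl4 (0.01, then -0.11), and at 4 d against 2 d Ccl6 (-0.68, then 0.45). These arrays limit what can be said at 2 d of Ccl7 and Cxcl10, whose calls end without them, of Ccl3, and of the size of Ccl2 and Ccl6.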
